A study of Mus musculus with 6 samples.

Results

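Genes by which the striatum is recognised were measured in RNA labelled as hippocampus: Penk, Tac1, Drd1, Drd2, Adora2a, Ppp1r1b, Pde10a and Rgs9, 8 of the 32348 gene identifiers in the deposited tables. They were chosen by name, as textbook markers of striatal neurons, with their levels in these same libraries already known, so the levels below are a description and carry no test. Of the 8 genes, 7 were present in every library, from a mean of 6.95 FPKM for Adora2a to 119.9 FPKM for Penk, and Drd1 was listed at 0 throughout. None of the 7 passed the test between treatments after adjustment over all genes. The levels varied between libraries of a group: 5 of the 7 genes were lowest in DHT library 1 and 4 were highest in DHT library 2.

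The tissue came from male C57BL/6 mice aged 14 months. Dihydrotestosterone (DHT), an androgen that aromatase does not convert to oestrogen, was given under the skin each day for 14 days to one group, and medical corn oil, its carrier, to the other. There were 3 libraries per group, called DHT 1 to 3 and oil 1 to 3. The labels name no genetic change in either group and do not say whether a library is 1 animal, so a p-value here measures the spread between libraries, which may be partly technical.

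The striatum is the input station of the basal ganglia, and most of its neurons are GABAergic medium spiny neurons that receive dopamine from the midbrain. These neurons fall into a direct pathway class, which carries the D1 dopamine receptor and the substance P precursor, and an indirect pathway class, which carries the D2 dopamine receptor, the adenosine A2a receptor and the enkephalin precursor. Both classes use cAMP signalling through DARPP-32, the protein of Ppp1r1b, and break cAMP down with Pde10a. In the hippocampus, background knowledge places Penk and Tac1 in scattered neurons, while Ppp1r1b, Pde10a, Rgs9 and Adora2a are best known from the striatum.

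The libraries held 143.3 to 177.3 M (mega) mapped reads and 43512 to 55325 reads across the back-splice junctions of circular RNAs. A gene value was the larger of the summed first-exon and summed last-exon FPKM (fragments per kilobase of exon per M fragments) of a locus, so values of different genes are on 1 scale per length. An FPKM estimate can fail for a single gene in a single library: Gapdh, which every cell uses, stood at 63.7, 4.47 and 1.10 FPKM in DHT libraries 1 to 3 and at 44.2, 43.8 and 1.76 in oil libraries 1 to 3. The labelled tissue was checked against 18 genes of hippocampal fields. Of these, 9 were high enough to test, led by Dkk3 at 15.5 to 25.3 FPKM, Zbtb20 at 2.64 to 15.8 FPKM and Wfs1 at 4.44 to 12.6 FPKM. Dsp, Lct and Amigo2 were listed at 0 in every library, and the dentate gyrus marker Prox1 lay between 1.28 and 2.79 FPKM. Fibcd1 of field CA1 lay between 0.663 and 1.06 FPKM and C1ql2 of the dentate gyrus at or below 0.297 FPKM. Prox1, Fibcd1 and C1ql2 were singled out after their values were seen. Over the whole list, 4 of the 18 genes (Dkk3, Zbtb20, Wfs1 and Calb1) had a mean above that of Adora2a, the lowest of the 7 detected markers, and 14 had a mean below it. This compares levels per length between genes and does not measure how much tissue of either kind was present. Whether each listed gene is confined to the hippocampus was not tested.

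Penk encodes the precursor of the enkephalins, opioid peptides of indirect pathway neurons (chromosome 4, 4133536 to 4138815, GRCm38). Its value was 75.2, 151 and 132 FPKM in DHT libraries 1 to 3 and 119, 123.5 and 118 FPKM in oil libraries 1 to 3. The oil libraries lay close together, and the DHT libraries lay on both sides of them. The means were 119.5 ± 39.6 FPKM with DHT and 120.3 ± 2.74 FPKM with oil (SD, n = 3 each), a log2 fold change of -0.07 (SE 0.25, limma adjusted p = 0.96). Penk was higher than 99.6% of the 11379 genes tested. Without DHT library 1 its log2 fold change was 0.23, with the DHT mean at 141.7 FPKM (limma adjusted p = 0.77).

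Tac1 encodes the precursor of substance P and neurokinin A, tachykinins of direct pathway neurons (chromosome 6, 7555061 to 7562978). It stood at 8.76, 14.7 and 11.5 FPKM in the DHT libraries and at 13.4, 11.1 and 10.8 FPKM in the oil libraries. The groups overlapped, with DHT library 1 below and DHT library 2 above every oil library, as for Penk. The log2 fold change was -0.04 (SE 0.19, limma adjusted p = 0.977). Penk exceeded Tac1 by 8.58 to 11.5 times in each library, so the ratio of the peptide genes varied less than either gene did.

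Drd1 encodes the D1 dopamine receptor, which raises cAMP in direct pathway neurons (chromosome 13, 54051183 to 54055658). All 3 of its events, 2 first exons and 1 last exon, were listed at 0 in all 6 libraries, and it was not tested. A value of 0 for every library can be a failed estimate, and these tables hold no read count that would bound it. Pdyn, the dynorphin precursor, and Isl1, a transcription factor, are also known from direct pathway neurons. Pdyn lay between 4.79 and 8.28 FPKM and Isl1 between 0.409 and 0.891 FPKM. Which cells these transcripts came from was not tested, and the 2 genes do not bound the Drd1 value. Both genes were singled out after their values were seen.

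Drd2 encodes the D2 dopamine receptor, which lowers cAMP in indirect pathway neurons (chromosome 9, 49340360 to 49408177). Its value was 7.30, 7.86 and 10.7 FPKM in the DHT libraries and 6.81, 7.18 and 6.19 FPKM in the oil libraries. Every DHT library lay above every oil library, the narrowest gap being between DHT library 1 and oil library 2. The means were 8.61 ± 1.80 and 6.73 ± 0.502 FPKM (SD, n = 3 each). The log2 fold change of 0.32 (SE 0.16) did not pass the test, with a limma p of 0.0826 that became 0.672 after adjustment. Without DHT library 3 the log2 fold change was 0.16. Drd2 was the only one of the 7 tested markers whose groups did not overlap, and of all tested genes 15.1% had groups that did not overlap, 12% with DHT the higher.

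Adora2a encodes the adenosine A2a receptor, which raises cAMP in the same indirect pathway neurons (chromosome 10, 75316877 to 75334792). It stood at 5.62, 8.50 and 7.90 FPKM in the DHT libraries and at 7.47, 8.65 and 3.57 FPKM in the oil libraries. Oil library 3 was the lowest and oil library 2 the highest, so the DHT libraries lay inside the range of the oil libraries. The log2 fold change of 0.21 (SE 0.32, limma adjusted p = 0.876) turned to -0.14 without oil library 3.

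Ppp1r1b encodes DARPP-32, an inhibitor of protein phosphatase 1 once protein kinase A has phosphorylated it (chromosome 11, 98348406 to 98357796). Its value was 45.9, 95.8 and 64.4 FPKM in the DHT libraries and 59.95, 80.5 and 79.6 FPKM in the oil libraries. The lowest and the highest value both came from DHT mice, and the groups overlapped. The means were 68.7 ± 25.2 and 73.4 ± 11.6 FPKM (SD, n = 3 each), with a log2 fold change of -0.15 (SE 0.27, limma adjusted p = 0.905) that was 0.11 without DHT library 1. A long non-coding RNA gene, 1700003D09Rik, overlaps the locus, and its reads may be counted with it.

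Pde10a encodes a phosphodiesterase that breaks down cAMP and cGMP in both classes of medium spiny neuron (chromosome 17, 8525187 to 8986648). By gene value it was the steadiest of the 7 genes, with 30.0, 33.3 and 30.4 FPKM in the DHT libraries and 32.5, 35.9 and 31.0 FPKM in the oil libraries. In DHT library 1, 12.1 FPKM of this value came from a first exon that held at most 0.0323 FPKM in any other library. Linear reads at Pde10a splice sites, given further on, were lowest in DHT library 1 among the libraries that had them. The coefficient of variation over the 6 libraries was 6.89%, against 17.8% to 28.5% for the other 6 tested markers. The groups overlapped, with a log2 fold change of -0.08 (SE 0.10, limma adjusted p = 0.843).

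Rgs9 encodes a regulator that speeds the shut-off of G proteins, with a long form known from the striatum and a short form known from the retina (chromosome 11, 109225348 to 109298181). Its value was 12.4, 22.6 and 20.2 FPKM in the DHT libraries and 20.4, 16.5 and 16.8 FPKM in the oil libraries. DHT library 1 was again below, and DHT library 2 above, every oil library. The log2 fold change was close to 0 (0.0036, SE 0.23, limma adjusted p = 0.998), and its sign changed with the choice of libraries and of gene value.

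**Figure D1:**
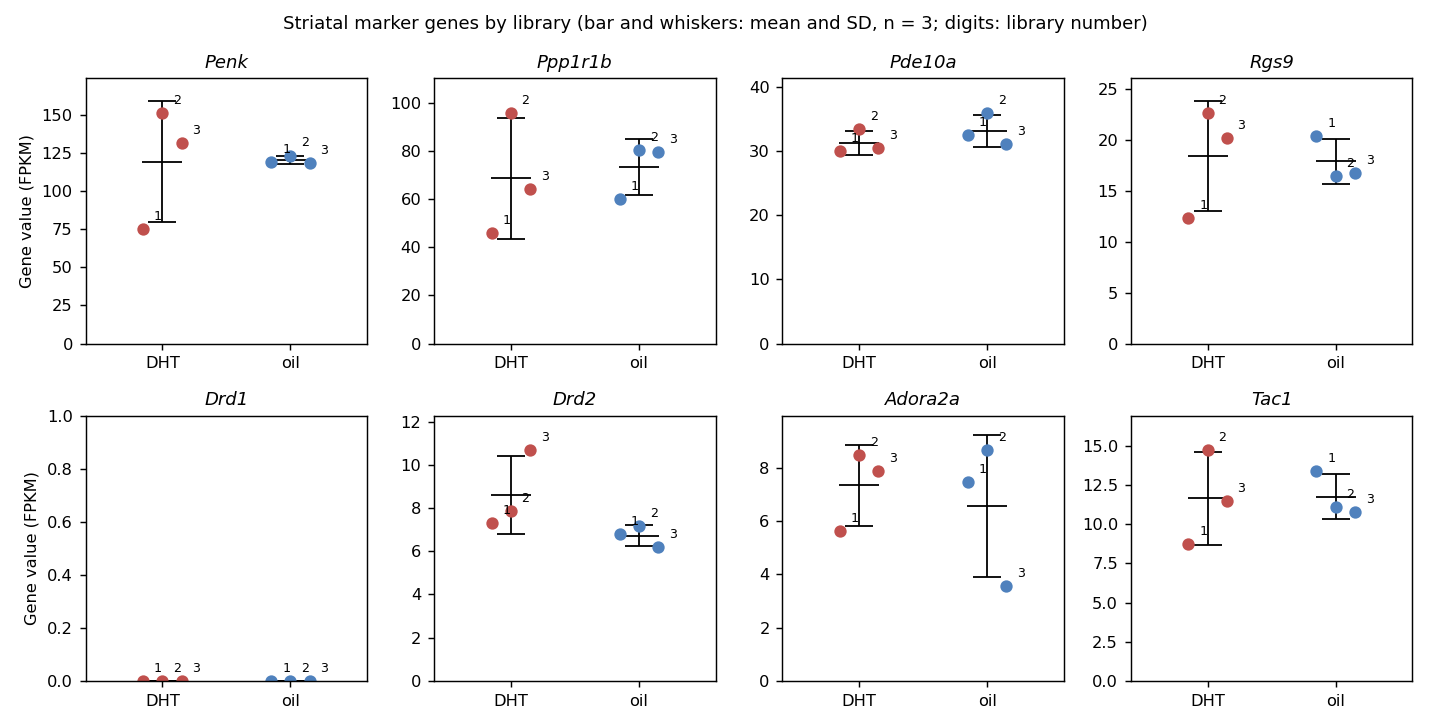
Gene value in FPKM (vertical axis, from 0, a scale of its own for each gene) of the 8 striatal marker genes in the 3 DHT and 3 oil libraries. Points are libraries with their number, and the long bar and whiskers are the mean and SD (n = 3). DHT library 1 is the lowest point for Penk, Ppp1r1b, Pde10a, Rgs9 and Tac1, the groups are apart only for Drd2, and Drd1 is at 0 in all 6 libraries.

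By mean level the order was Penk, Ppp1r1b, Pde10a, Rgs9, Tac1, Drd2 and Adora2a. The first 5 held this order in all 6 libraries. Drd2 and Adora2a changed places, with Drd2 the higher in 3 of 6 libraries. Over libraries the ranges of Ppp1r1b and Pde10a, and of Pde10a and Rgs9, lay apart, while those of Penk and Ppp1r1b, Rgs9 and Tac1, Tac1 and Drd2, and Drd2 and Adora2a overlapped.

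Between treatments, 0 of the 7 tested markers passed an adjusted p of 0.05, as against 0.0176% of all 11379 genes (2 genes). None had an unadjusted limma p under 0.05, which 7.33% of all genes did. By sign, 3 markers were higher and 4 lower with DHT, and their median log2 fold change was -0.04 beside 0.07 for all genes. Of all genes 36.4% were lower. Of all tested genes 63.6% were higher with DHT, and 51.4% after each library was centred on its median. With centring Rgs9 joined the lower markers at -0.06.

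Several markers were low or high in the same libraries. Their summed level, most of it from Penk and Ppp1r1b, was 185, 334 and 277 FPKM in DHT libraries 1 to 3. In oil libraries 1 to 3 it was 259.9, 283 and 266 FPKM. DHT library 1 was lowest for 5 of 7 genes, where 16.0% of all tested genes were lowest in that library, and DHT library 2 was highest for 4 of 7, where 19.6% of all genes were highest. Relative to the median of the other 5 libraries, DHT library 1 held 0.576 times the Ppp1r1b level, 0.609 times the Penk level and 0.611 times the Rgs9 level, but 0.921 times the Pde10a level and 1.02 times the Drd2 level. The Pde10a value of DHT library 1 held 12.1 FPKM from a first exon hardly used in the other libraries. Fewer striatal-type cells and less marker RNA per cell cannot be told apart in such bulk libraries. Over the 21 pairs of tested markers the median Pearson r across the 6 libraries was 0.495, from -0.238 for Pde10a and Drd2 to 0.946 for Rgs9 and Tac1, and 19 pairs had an r above 0. By Pearson r, Penk followed Rgs9 (r = 0.920), Tac1 (0.859) and Ppp1r1b (0.851) more closely than Adora2a (0.422) and Drd2 (0.273), with which it shares the indirect pathway class. By Spearman rho this order did not hold, with Adora2a at 0.771, Rgs9 and Ppp1r1b each at 0.714, Tac1 at 0.829 and Drd2 at 0.600. These values describe 6 libraries and carry no test. The part that differences in dissection or processing between libraries had in them was not tested.

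Rgs9 and Tac1, the markers with the highest r, and Pde10a, the steadiest marker, are shown with the 250 bases before a RefSeq transcript start (GRCm38.p6, gene strand, 5′ to 3′). Capitals mark matches, on either strand, to 4 motifs searched: TGCGTCA and TGACGTCA, which are cAMP response element forms, the TATA box TATAAA and the GC box GGGCGG.
Tac1, chr6:7554811-7555060, plus strand: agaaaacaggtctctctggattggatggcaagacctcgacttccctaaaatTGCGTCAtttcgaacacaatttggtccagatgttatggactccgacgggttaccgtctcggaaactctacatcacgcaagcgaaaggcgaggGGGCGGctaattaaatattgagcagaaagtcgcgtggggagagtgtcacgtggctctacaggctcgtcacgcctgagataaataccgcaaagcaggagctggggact
Rgs9, chr11:109298182-109298431, minus strand: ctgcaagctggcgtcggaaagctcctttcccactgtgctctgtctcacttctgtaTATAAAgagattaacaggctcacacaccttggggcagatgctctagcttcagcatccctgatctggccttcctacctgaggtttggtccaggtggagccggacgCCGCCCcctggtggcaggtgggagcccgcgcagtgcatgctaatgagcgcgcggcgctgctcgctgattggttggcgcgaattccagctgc
Pde10a, chr17:8801495-8801744, plus strand: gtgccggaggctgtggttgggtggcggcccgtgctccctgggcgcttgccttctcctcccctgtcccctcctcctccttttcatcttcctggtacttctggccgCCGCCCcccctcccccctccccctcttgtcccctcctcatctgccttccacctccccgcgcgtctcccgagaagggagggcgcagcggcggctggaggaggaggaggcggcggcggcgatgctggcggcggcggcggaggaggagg
The Tac1 window held TGCGTCA, found in 1.75% of 32851 promoter windows, and the Rgs9 window held TATAAA, found in 12.4%. A GC box stood in windows of Tac1, Rgs9, Pde10a, Drd2 and Drd1 and in 32.7% of all windows, and TGACGTCA (1.55% of all windows) in none of them. The table had 7 windows for 5 of the 8 genes, and Penk, Ppp1r1b and Adora2a were not matched. A match is a run of letters and not evidence of binding. The Pde10a window had 72.8% G and C, beside a median of 52.4% over all windows, and its end overlaps the first exon that carried most Pde10a signal in 5 of 6 libraries.

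Exon use within the loci was described by shares. First-exon shares divide the same first-exon FPKM that enters the gene values, so they are not independent of those values. Shares were computed for 17 events whose pair or set of first exons had a mean of at least 1 FPKM, a rule set after the tables were seen. For 3 libraries against 3, an exact two-sided permutation test cannot go below p = 0.1, so no share could pass 0.05. At that smallest value stood 2 shares, 1 in Ppp1r1b and 1 in Tac1 (adjusted p = 0.85 over the 17 shares).

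In Ppp1r1b the exon at 98348404 to 98349174 on chromosome 11 took 89.7%, 93.7% and 89.8% of the first-exon FPKM in DHT libraries 1 to 3 and 60.9%, 65.5% and 71.9% in oil libraries 1 to 3. The groups were apart, at 91.1 ± 2.27% and 66.1 ± 5.52% (SD, n = 3 each, exact permutation p = 0.1, adjusted p = 0.85). The difference of 25 percentage points lay between 22.4 and 27.9 when each library was left out in turn. The other first exons lie downstream, the nearest from 98349996 to 98350110 or to 98350629 and the next at 98350855 to 98350907. Together they held 4.71, 6.04 and 6.57 FPKM with DHT and 23.4, 27.8 and 22.4 FPKM with oil. The exon ending at 98350110 held 14.8, 7.57 and 0 FPKM in oil libraries 1 to 3, and that ending at 98350907 held 5.56, 18.5 and 20.2 FPKM. The oil libraries thus did not share 1 main alternative start. The last exon of the locus did not follow the split between the main and the other first exons, at 45.9, 95.8 and 64.3 FPKM with DHT and 59.95, 80.5 and 79.6 FPKM with oil.

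In Tac1 the 54-base exon that encodes neurokinin A was included in 100%, 98.7% and 98.9% of the paired signal in DHT libraries 1 to 3 and in 91.8%, 96.7% and 96.7% in oil libraries 1 to 3. The groups were apart by 4.10 percentage points (99.2 ± 0.725% and 95.1 ± 2.80%, SD, n = 3 each, exact permutation p = 0.1, adjusted p = 0.85). The form without this exon reached 1.09 FPKM in oil library 1 and at most 0.371 FPKM in any other library, so the difference rested on low values. Without oil library 1 it was 2.49 percentage points. The 45-base exon, which the gamma form of the precursor lacks, was included in 18.6% to 40.2% with DHT and in 24.3% to 34.9% with oil (exact permutation p = 0.8). Forms without it thus held more signal than forms with it in every library.

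In Drd2 the 87-base exon that separates the long from the short D2 receptor was included in 84.1%, 100% and 91.4% with DHT and in 73.5%, 100% and 87.2% with oil. Signal with the exon, as in the long form known from medium spiny neurons as the receiving side of dopamine, led in all 6 libraries. The groups overlapped (exact permutation p = 0.7). The signal without the exon equalled that of first exons inside the gene, at 49395014 to 49395900 and, in oil library 3, at 49379492 to 49383873. The share thus follows the assigned start and does not give the balance of complete long and short receptor forms. In Penk the 141-base middle exon was included in 100% of the signal in all 6 libraries.

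Pde10a, steady by gene value, varied within its locus. Its main first exon (8801693 to 8802145) took 94.1% and 78.3% of first-exon signal in DHT libraries 2 and 3 and 87.7% to 96.3% in the oil libraries, but 40.4% in DHT library 1 (exact permutation p = 0.2). The difference of -22.3 percentage points between DHT and oil was -7.09 without that library. That exon alone stood at 12.1 FPKM in DHT library 1 and at 23.8 to 31.5 FPKM in the other 5. In DHT library 1 a further 12.1 FPKM was assigned to an exon at 8924143 to 8924241, which held at most 0.0323 FPKM elsewhere. The gene value of Pde10a in that library thus rests on a start that the other libraries hardly used, and whether it was an assembly outcome was not tested. A 50-base exon (8930510 to 8930559) was included in 94.4% to 100% with DHT and in 94.5%, 48.7% and 45.5% in oil libraries 1 to 3 (exact permutation p = 0.2).

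In Rgs9 the intron between 109227604 and 109235900 was retained in 27.7% of the signal in DHT library 1 and in 22% to 31.5% in the oil libraries, and was at 0 in DHT libraries 2 and 3 (exact permutation p = 0.3). In Adora2a the upstream first exon (75316877 to 75317147) took from 18.8% to 85.7% of first-exon signal with DHT and from 23.9% to 67.2% with oil (exact permutation p = 0.6). Its use varied more between libraries of a group than between groups.

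**Figure D2:**
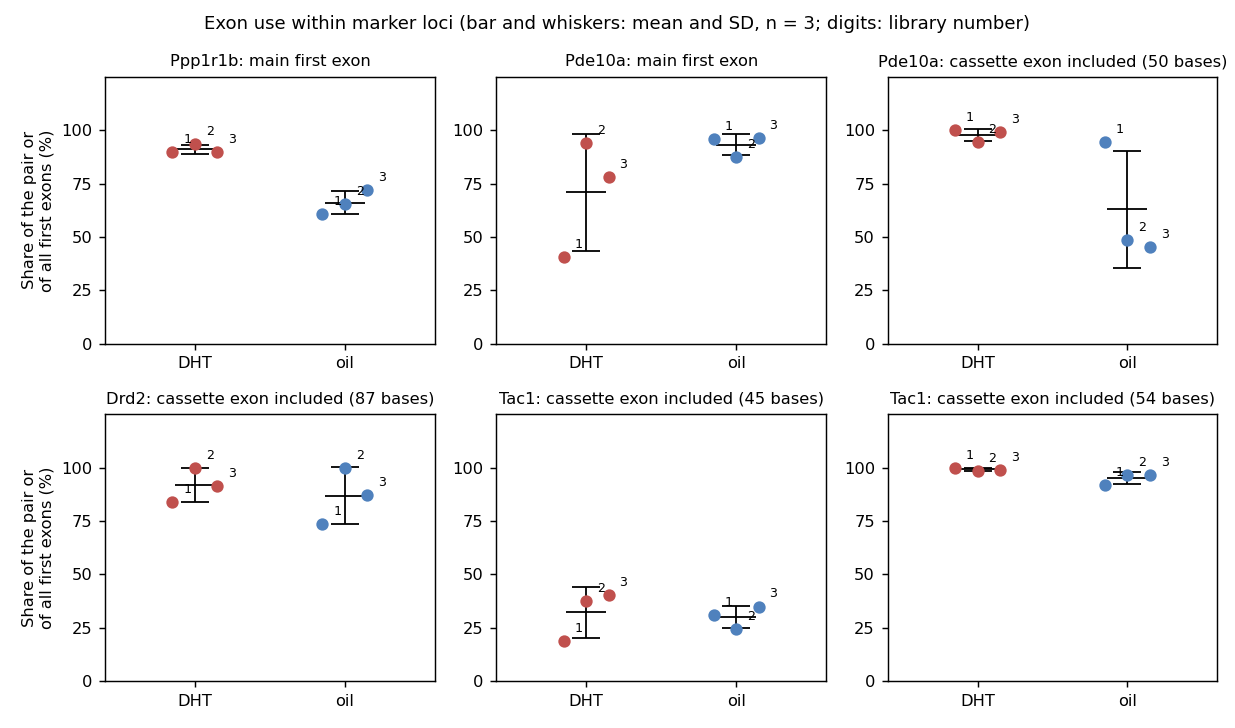
Exon use within 4 marker loci, as the share in percent of the signal of a pair of splice forms or of all first exons of the locus (vertical axis), in 3 DHT and 3 oil libraries. Points are libraries with their number, and the long bar and whiskers are the mean and SD (n = 3). The groups are apart for the Ppp1r1b first exon (89.7% to 93.7% against 60.9% to 71.9%) and the Tac1 exon of 54 bases, and DHT library 1 stands alone at 40.4% for the Pde10a first exon.

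Circular RNAs, in which the end of an exon is joined back to the start of the same or an earlier exon, were listed for only 2 of the 8 genes, Pde10a and Rgs9. The lists leave out a circle with fewer than 2 reads in a library, so an unlisted circle can hold 1 read. Pde10a had 10 circles, 8 exonic and 2 intronic, with 11, 23 and 28 junction reads in DHT libraries 1 to 3 and 21, 7 and 9 in oil libraries 1 to 3. Rgs9 had 4 circles, all exonic, with 4, 8 and 8 reads in the DHT libraries and 0, 4 and 0 in the oil libraries. The groups overlapped for both genes, and no circle of either was listed in all 6 libraries. Penk, Ppp1r1b and Tac1, although expressed, had none listed.

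Of these 14 circles, 1 reached the 20 reads needed for the test, a Pde10a circle from 8941141 to 8953923 on chromosome 17. It had 3, 3 and 8 reads with DHT and 13, 7 and 0 with oil. The groups overlapped, with an edgeR log2 fold change of -0.55 (adjusted p = 0.996). Without oil library 1 it was 0.33. Of all 2524 circles tested, 0 passed the adjusted threshold (0%), 79 had an unadjusted p under 0.05 (3.13%), and DESeq2 called 0 as well. Where exonic circles of the 2 genes were listed, junction reads made up 0.149% to 1.19% of the junction and linear reads together, so nearly all reads at these splice sites came from linear RNA.

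The linear reads at those splice sites were counted apart from the FPKM estimates, although in the same libraries. Linear reads are given here for the 3 loci whose circle was listed in at least 4 libraries. At the Pde10a circle from 8941141 to 8953923 they were 5.54, 7.96 and 7.36 per M mapped reads in DHT libraries 1 to 3 and 6.82 and 6.26 in oil libraries 1 and 2. At the Rgs9 circle from 109268923 to 109281545 they were 2.87, 5.55 and 4.38 in the DHT libraries and 4.40 in oil library 2. At a second Pde10a circle, from 8898861 to 8930559, they were 4.96, 7.94 and 7.47 in the DHT libraries and 6.09 in oil library 3. DHT library 1 was lowest and DHT library 2 highest at all 3 loci, among the libraries that listed them. Over the 1581 loci listed in all 6 libraries the median was 1.39 to 1.42 per M mapped reads, with DHT library 1 at 1.42. No marker locus was among those 1581, of which edgeR called 14 (0.886%).

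**Figure D3:**
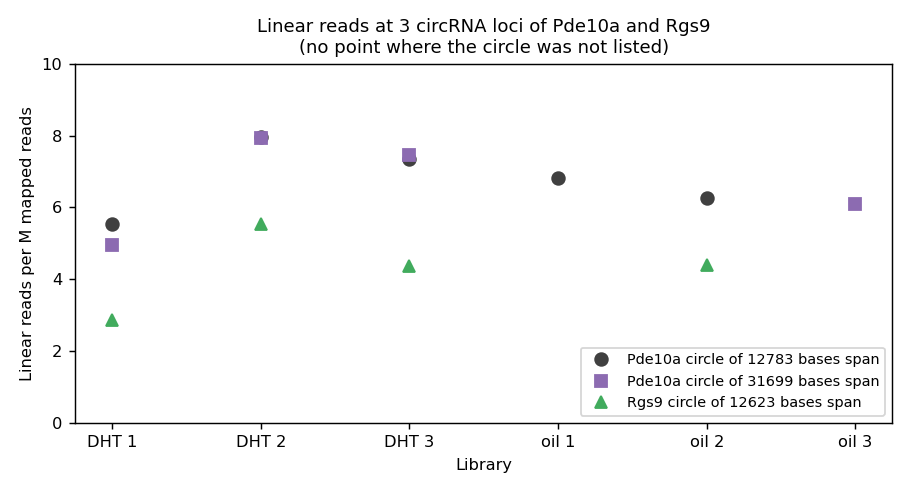
Linear reads per M mapped reads (vertical axis, from 0) at the splice sites of 2 Pde10a circles and 1 Rgs9 circle in each library (horizontal axis). A point is missing where the circle was not listed. DHT library 1 is the lowest point of each series, at 5.54, 4.96 and 2.87, and DHT library 2 the highest.

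Other genes of striatal projection neurons gave a wider view. Of 32 listed, 25 were tested, 10 higher and 15 lower with DHT. Their median log2 fold change was -0.05, and 0 had an unadjusted limma p under 0.05. DHT library 1 was the lowest of the 6 for 15 of the 25. The 3 most abundant were Arpp21, a regulator of calmodulin signalling, at 43.4 to 61.0 FPKM, Ngef, a guanine nucleotide exchange factor, at 35.8 to 44.3 FPKM, and Pde1b, a calmodulin-dependent phosphodiesterase, at 9.96 to 40.4 FPKM. Their summed level was 321 FPKM in DHT library 1, 345 and 382 FPKM in the other DHT libraries, and 342 to 379 FPKM in the oil libraries. This sum did not peak in DHT library 2: Pde1b and Scn4b, a sodium channel subunit, stood there at 9.96 and 4.003 FPKM and in no other library below 30.9 and 21.8 FPKM. Gpr6, Foxp1, Lrrc10b and Ankk1 were listed at 0 everywhere. Scn4b was named after its values were seen.

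**Figure D4:**
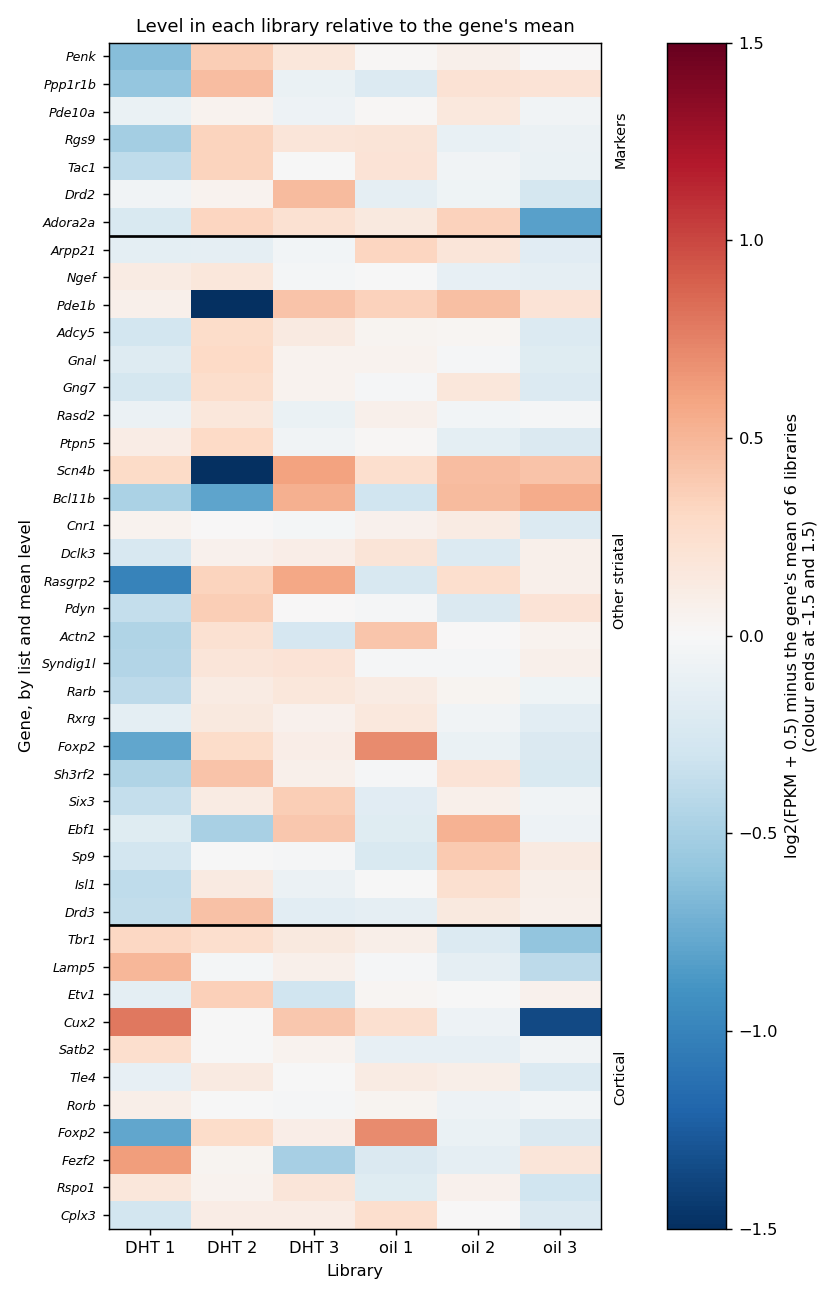
Level of 7 striatal markers, 25 other striatal genes and 11 cortical layer genes (rows, most abundant first in each list) in the 6 libraries (columns), as log2(FPKM + 0.5) minus the gene's own mean. Blue is below and red above the mean, with the colours ending as marked on the scale bar. The DHT 1 column is the lowest of the row for 5 of 7 markers and for 15 of the 25 other striatal genes. For Drd2 it is close to the gene's mean, and for Tbr1, Lamp5 and Cux2 it is red. Dark blue cells mark Pde1b and Scn4b in DHT 2 and Cux2 in oil 3.

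Partners of the markers in dopamine and cAMP signalling were tested in 21 cases, 11 higher and 10 lower with DHT, and none passed the adjusted threshold. An unadjusted limma p under 0.05 was reached by 2 of the 21, Gnas and Gnb5, and by 7.33% of all tested genes, so the count was near that share. The 3 most abundant were Ppp3ca, the calcineurin subunit whose enzyme removes phosphate from DARPP-32, at 67.5 to 165 FPKM, Gnas, which encodes the stimulatory G protein subunit, at 32.6 to 83.5 FPKM, and Gnb1, a G protein beta subunit, at 43.0 to 70.5 FPKM. Gnas stood at 32.6, 44.2 and 44.6 FPKM with DHT and 50.8, 75.3 and 83.5 FPKM with oil. The groups did not overlap, as for 3.15% of all genes with DHT the lower, and the log2 fold change of -0.76 (SE 0.22) had a limma p of 0.00987 and an adjusted p of 0.654. Gnb5, the G protein beta subunit that pairs with the Rgs9 protein, stood at 10.4, 15.6 and 10.4 FPKM with DHT and 16.9, 17.2 and 20.5 FPKM with oil (log2 fold change -0.59, limma adjusted p = 0.654). The Gnb5 groups did not overlap either, while Rgs9 itself overlapped. Gnb5 was named after its values were seen.

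Receptors and processing enzymes of the peptides were tested in 9 cases, 6 higher and 3 lower, and 0 passed either threshold. The most abundant were Cpe at 190.3 to 223 FPKM, Pcsk2 at 38.9 to 47.5 FPKM and Scg5 at 38.01 to 41.95 FPKM, which trim peptide precursors such as that of Penk or assist the trimming. Transcripts that mark other cells of the striatum and its input were listed at low levels. Chat, Lhx8 and Slc5a7 of cholinergic neurons lay between 0.182 and 1.73 FPKM, and all 3 were lowest in DHT library 1. Lhx8 had an unadjusted limma p of 0.0274 and an adjusted p of 0.659, lower with DHT. Of dopamine neuron genes, Th lay between 0.378 and 1.45 FPKM and Ddc between 0.499 and 0.834 FPKM, Slc18a2 reached at most 0.403 FPKM, Slc6a3 was at 0.12 FPKM in DHT library 1 and 0 elsewhere, and En1 and Pitx3 were listed at 0.

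Genes of neighbouring regions were set beside the markers, DHT library 1 in particular. Of 11 cortical layer genes, 8 were higher and 3 lower with DHT and 6 were highest in DHT library 1, where 21.1% of all genes were highest. Tbr1, a transcription factor of deep cortical layers and the most abundant of the list, stood at 24.97, 24 and 22.1 FPKM with DHT and 21.3, 17.2 and 13.1 FPKM with oil. Its groups did not overlap, and its limma p of 0.0326 became 0.659 after adjustment. The summed cortical level was 104 FPKM in DHT library 1, 88.1 and 92.1 FPKM in the other DHT libraries and 65.0 to 88.9 FPKM in the oil libraries. The ratio of the marker sum to the cortical sum was 1.78 in DHT library 1 and 2.92 to 4.10 in the other 5 libraries. Penk and Ppp1r1b, with means of 119.9 and 71.0 FPKM, made up most of the marker sum. Lamp5, Tbr1 and Cux2, at 25.3, 24.97 and 16.6 FPKM, made up most of the cortical sum in DHT library 1. The sums and ratios thus follow these few genes and not each list as a whole. The 9 hippocampal field genes, led by Dkk3, Zbtb20 and Wfs1, summed to 49.3 FPKM in oil library 1 and to 61.8 to 73.0 FPKM elsewhere, with DHT library 1 at 61.8 FPKM and lowest for 4 of the 9. The ratio of the marker sum to the hippocampal sum was 3.00 in DHT library 1 and 3.94 to 5.27 elsewhere. Zbtb20 alone stood at 3.63, 15.7 and 12.1 FPKM with DHT and 2.64, 15.8 and 13.3 FPKM with oil. The order of the hippocampal sums, and the ratios made from them, thus rest in part on that gene. No gene had an unadjusted or adjusted limma p under 0.05 in the lists for thalamus and habenula (10 tested), septum and amygdala (9), choroid plexus (2) or oligodendrocytes (6). The choroid plexus sum ran from 0.574 FPKM in DHT library 1 to 77.7 FPKM in oil library 1. The part that differences in dissection had in the marker levels was not tested.

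**Figure D5:**
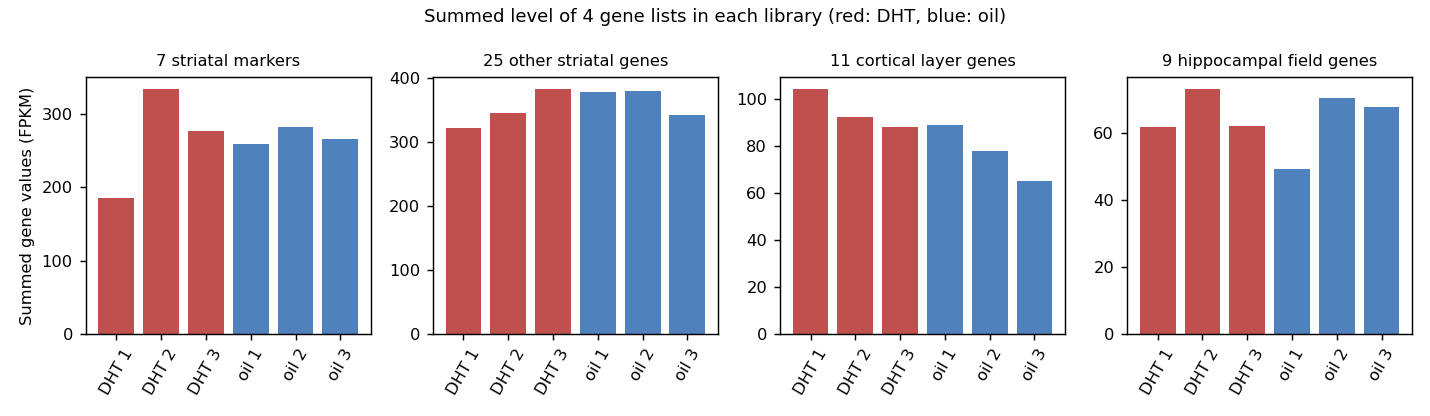
Summed gene value in FPKM (bars, vertical axes from 0, a scale of its own for each list) of the striatal markers, other striatal genes, cortical layer genes and hippocampal field genes in each of the 6 libraries, DHT in red and oil in blue. DHT library 1 has the lowest sum for the markers (185 FPKM) and the other striatal genes (321 FPKM) and the highest for the cortical genes (104 FPKM). Most of the marker sum is Penk and Ppp1r1b.

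Among 10077 other genes averaging 1 FPKM or more, those whose profile over the 6 libraries was most like the mean standardised profile of the tested markers were Taldo1 (Pearson r = 0.995), Mgat3, Ppp6r2, Zfp580, Sh3rf2, Arhgdib, Tbc1d15, Kcnq3, Aatf and Gm15503 (0.969). The marker profile was itself lowest in DHT library 1 (-1.20), so genes chosen for likeness to it were nearly bound to be low there. All 10 were lowest in that library, which is no further result, and their Spearman rho lay between 0.829 and 1. Without the 2 libraries farthest from the median of that profile, DHT 1 and oil 3, their r lay between 0.727 and 0.967. An r above 0.9 was reached by 97 genes, and by 5 of the 22 other striatal genes in the comparison: Sh3rf2 (0.980), Adcy5 (0.964), Gng7 (0.952), Gnal (0.908) and Rarb (0.904). Over the 22 the median r was 0.601, and 3 had an r below 0: Scn4b (-0.536), Pde1b (-0.433) and Bcl11b (-0.057). Adcy5, Gng7 and Gnal encode the cyclase and the G protein subunits through which D1 and A2a receptors raise cAMP. Adcy5, for example, stood at 26.1, 38.3 and 34.7 FPKM in the DHT libraries and 32.4, 32.2 and 27.3 FPKM in the oil libraries, with the groups overlapping. With 6 points, many genes reach a high r, and no test was made of these values.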

How the data were processed

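RNA labelled as hippocampus was sequenced in 3 DHT and 3 oil libraries, grouped by the treatment labels and numbered 1 to 3 in accession order for naming only. FPKM values were deposited by the authors per exon or splicing event of assembled loci (315379 events), per the file headers, and not per gene. Junction reads and linear reads per circle were deposited by the authors as counts, for circles of at least 2 junction reads (11895 in all). The deposited score per circle is SRPBM rounded down, per the labels' protocols and the values, and was used only to derive mapped reads. Submitters' processing notes name HISAT2 2.0.1, BWA, cutadapt and bcl2fastq 2.17.1.14, with no roles. The sources used here do not say which tools called circles, assembled loci and gave FPKM. The notes name mm9, but 99.7% of 10314 exonic circles lay within GRCm38 bounds of their host gene, so coordinates are treated as GRCm38.

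A gene value was the larger of the first-exon and last-exon sums per library, or the fullest single event where both were 0 (459 values). Of 32348 identifiers, 99.7% had a symbol. The limma test (3.58.1, R 4.3.3, two-sided, with a trend) was run for 11379 genes averaging 0.5 FPKM or more. It used log2(FPKM + 0.5), so fold changes of low genes are understated. Circles with at least 20 reads (2524), and linear reads at loci listed in every library (1581), were tested by quasi-likelihood in edgeR 4.0.16 with TMM factors, and again with DESeq2 1.42.0. For circles the library size was all junction reads. The Benjamini-Hochberg adjustment ran over each whole table, at a threshold of 0.05. Shares were compared by exact permutation, two-sided. Tables were read with Python 3.11.15, pandas 2.3.3 and numpy 2.4.6 and drawn with matplotlib 3.10.9, and the fits were tested on simulated data.

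All 8 genes are named, with the 3 most abundant of each list and the 10 most like profiles, and further genes are marked where they appear. The markers, the lists and the counts by library were chosen with earlier results of these data known. From the list of other striatal genes, 1 gene is not reported here. Reads of overlapping or antisense genes cannot be told apart, and intervals for depth cannot be given for FPKM.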

Additional observations from a re-analysis of the deposited data

How the results depend on the processing

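No marker passed the adjusted threshold under any alternative run (limma adjusted p 0.591 to 0.999), and 91 of 103 alternative fold changes of the markers kept their sign. The other 12 changed sign. Fits with no filter on level, with a mean of at least 2 FPKM, or without the fullest-event rule gave each marker the fold change of the main fit. Those signs could not differ, so the count of kept signs is not a measure of stability. Rgs9 went from 0.0036 to -0.0575 with centred libraries, -0.0626 with first-exon sums only and -0.14 with last-exon sums only. Leaving out 1 library at a time gave log2 fold changes of -0.16 to 0.26 for Rgs9, -0.27 to 0.23 for Penk, -0.42 to 0.11 for Ppp1r1b, -0.21 to 0.14 for Tac1, -0.14 to 0.44 for Adora2a and -1.23 to 0.33 for the tested Pde10a circle. Likewise share differences ran, in percentage points, from -2.61 to 3.94 for the Adora2a exon of 122 bases, -1.77 to 11.5 for the Drd2 exon of 87 bases, -10.1 to 5.14 for the main Drd2 first exon and -1.87 to 8.95 for the Tac1 exon of 45 bases. For the Drd2 gene value the range was 0.16 to 0.42. Its groups did not overlap, so leaving out 1 library could not change that sign.

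Over all genes, 2 passed the threshold, 1 with a pseudocount of 0.1 or a mean of at least 2 FPKM, 0 with first-exon sums, last-exon sums or the fullest event, and 0 to 4 without 1 library. Unadjusted p under 0.05 was reached by 657 genes higher and 177 lower with DHT, and by 360 and 325 after centring. Circles past the threshold numbered 0, but 6 among circles with at least 6 reads, and 0 to 1 without 1 library. Linear loci numbered 14, 23 with DESeq2, and 5 to 19 without 1 library. The cause of these differences was not tested. Counting an unlisted circle's linear reads as 0 was not run, since those reads are unknown. No paired analysis was possible because the groups share no replicate numbers in the labels. With 3 libraries per group and 4 to 28 junction reads per marker gene and library where listed, small differences could not be seen.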
